A study of Rattus norvegicus with 17 samples.

Results

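Trpm7, Ccar1, Phaf1, Cpq, Plgrkt and Zmpste24 are 6 of the 14557 genes that the liver arrays measured with an unambiguous gene name, and all 6 were among the 12912 bright enough to be tested. They were picked because their signal was higher in the young of rat dams whose diet changed between pregnancy and lactation than in the young of dams whose diet stayed the same. That difference is therefore how the genes were chosen, and it is described here without a test. The data are array signals on the log2 scale, where a difference of 1 is a doubling, for the livers of 17 male Wistar rats aged 24 days, with 1 male per litter and 1 array per liver. All dams had eaten a choline-deficient AIN-93 M diet for 16 weeks before mating to induce a fatty liver, so every group, the controls included, descends from dams with that condition, and no group from healthy dams is compared here.

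The groups differ in when the dam received choline. In NN (4 livers) the dam ate the standard AIN-93 G diet in pregnancy and in lactation. In ND (4 livers) she received it in pregnancy and the choline-deficient diet in lactation, in DN (5 livers) the reverse, and in DD (4 livers) the deficient diet throughout. ND and DN are called the changed diet (9 livers), and NN and DD the unchanged diet (8 livers). A letter pair with a number, such as NN 2, is a single liver.

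Choline is used to make phosphatidylcholine, the main membrane phospholipid, which the liver needs to secrete fat in very low density lipoprotein. A diet without it lets triglyceride build up in hepatocytes. The 6 genes do not form a known pathway. Trpm7 encodes a cation channel joined to a protein kinase that lets magnesium, calcium and zinc into the cell. Ccar1 encodes a nuclear coactivator that works with the Mediator complex, nuclear receptors and beta-catenin. Phaf1, described in human cells, encodes a protein that joins BCAS3 on the forming autophagosome. Cpq encodes a peptidase that cleaves dipeptides and is found in lysosomes and in secretions. Plgrkt encodes a membrane receptor for plasminogen, and Zmpste24 the membrane metalloprotease that removes the farnesylated tail of prelamin A.

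The genes were chosen for the same pattern over the diet groups, and the DNA around their start sites is shown so that they can be set side by side. RefSeq promoter windows on build GRCr8, from 250 bases before to 50 after the start, were found for 4 of the 6 genes, and Cpq and Zmpste24 are named only. The windows lie at chr3:134588064-134588363 for Trpm7 (minus strand), chr20:31271178-31271477 for Ccar1 (minus), chr19:50011188-50011487 for Phaf1 (plus) and chr1:236524791-236525090 for Plgrkt (minus). Each is written 5′ to 3′ on the strand of its gene, with capitals marking the motifs found.
Trpm7: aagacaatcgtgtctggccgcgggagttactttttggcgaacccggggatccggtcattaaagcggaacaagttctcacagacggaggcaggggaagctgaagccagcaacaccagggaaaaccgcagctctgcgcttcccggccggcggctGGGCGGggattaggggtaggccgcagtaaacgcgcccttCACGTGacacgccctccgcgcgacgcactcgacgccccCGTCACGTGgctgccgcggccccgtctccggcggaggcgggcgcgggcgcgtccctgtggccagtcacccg
Ccar1: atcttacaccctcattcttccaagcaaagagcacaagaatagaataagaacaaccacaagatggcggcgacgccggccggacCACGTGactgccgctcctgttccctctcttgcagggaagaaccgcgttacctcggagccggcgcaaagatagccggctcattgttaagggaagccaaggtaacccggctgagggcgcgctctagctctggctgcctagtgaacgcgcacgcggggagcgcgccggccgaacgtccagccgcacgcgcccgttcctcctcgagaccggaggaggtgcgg
Phaf1: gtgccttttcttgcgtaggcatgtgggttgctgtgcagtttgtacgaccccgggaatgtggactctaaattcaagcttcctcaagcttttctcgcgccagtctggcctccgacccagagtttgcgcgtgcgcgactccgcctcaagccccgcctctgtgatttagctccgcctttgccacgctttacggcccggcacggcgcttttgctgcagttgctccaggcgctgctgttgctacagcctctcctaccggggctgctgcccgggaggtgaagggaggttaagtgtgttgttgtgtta
Plgrkt: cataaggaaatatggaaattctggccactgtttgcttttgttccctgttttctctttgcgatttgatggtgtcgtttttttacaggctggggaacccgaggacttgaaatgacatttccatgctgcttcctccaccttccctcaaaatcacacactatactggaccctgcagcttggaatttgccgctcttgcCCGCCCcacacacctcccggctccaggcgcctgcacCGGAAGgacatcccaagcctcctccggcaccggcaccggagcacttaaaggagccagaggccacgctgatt

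The windows were searched on both strands for 7 short motifs. The E-box, spelled CACGTG, was present 2 times in the Trpm7 window, 59 and 18 bases before the start, and at -168 in that of Ccar1; 6.65% of all 27457 windows of this length hold it. The GC box, spelled GGGCGG, was present in Trpm7 at -98 and in Plgrkt at -57, and in 34.9% of all windows. The CRE core, spelled TGACG, was present in Trpm7 at -21, where it overlaps the nearer E-box, and in 22.0% of all windows. The ETS core, spelled CGGAAG, was present in Plgrkt at -21 and in 17.4% of all windows. None of the 4 windows held TATAAA (the TATA box, 14.3% of all windows). The same was true of the CCAAT box, found in 37.7% of all windows under that spelling, and of the AP-1 site, spelled TGANTCA and found in 7.33%. Phaf1 held none of the 7, and no motif was in more than 2 of the 4 windows. The G and C content was 68.0% for Trpm7, 62.3% for Ccar1, 59.0% for Phaf1 and 53.7% for Plgrkt, against a median of 52.3% over all windows. The CpG count was 38, 32, 21 and 12 in the same order, against a median of 7. These matches describe the letters only.

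The arrays carry liver RNA: albumin (Alb, 11.7), transferrin (Tf, 11.5), transthyretin (Ttr, 11.2) and fibrinogen gamma (Fgg, 10.9) were among the 10 genes of highest mean log2 signal, although a free-text label names a prostate cell line. The spread of each array matters for all that follows. The SD of log2 signal over all probe sets of an array (array SD below) ran from 1.62 to 1.79. It was 1.68, 1.79, 1.66 and 1.68 in NN 1 to 4, 1.75, 1.69, 1.73 and 1.79 in ND 1 to 4, 1.74, 1.77, 1.72, 1.79 and 1.73 in DN 1 to 5, and 1.67, 1.74, 1.62 and 1.66 in DD 1 to 4. NN 2 had the widest spread of the NN arrays and DD 2 of the DD arrays, and both lay within the range of the changed-diet arrays. The mean array SD was 1.75 ± 0.0326 (SD, n = 9) under changed diet and 1.69 ± 0.0528 (SD, n = 8) under unchanged diet. The difference of 0.0580 had a 2-sided exact permutation p of 0.0161, or 0.113 adjusted over 7 group comparisons. Without NN 2 it was 0.0720, given with no test because NN 2 is itself the unchanged-diet array of widest spread. Values of the 6 genes are therefore given with and without NN 2, and with array SD fitted.

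Trpm7 log2 signal was 4.55, 5.27, 4.84 and 4.31 in NN 1 to 4. In ND 1 to 4 it was 5.84, 4.96, 5.42 and 6.16, and in DN 1 to 5 it was 5.26, 5.67, 6.45, 6.07 and 5.80. In DD 1 to 4 it was 4.60, 5.25, 4.76 and 4.92. The ranges met: NN 2 was the highest unchanged-diet liver, and ND 2 and DN 1 lay below it, so that 7 of 9 changed-diet livers were above every unchanged-diet liver. Group means ran from NN (4.74 ± 0.41, SD, n = 4) through DD (4.88 ± 0.28, n = 4) and ND (5.60 ± 0.52, n = 4) to DN (5.85 ± 0.44, n = 5), and all neighbours in that order overlapped. The mean of ND and DN exceeded that of NN and DD by 0.91 ± 0.187 (SE), or 1.88-fold, and by 1.00 without NN 2.

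Ccar1 log2 signal was 5.04, 5.54, 4.78 and 4.74 in NN 1 to 4. In ND 1 to 4 it was 5.96, 5.39, 5.58 and 5.98, and in DN 1 to 5 it was 5.25, 5.69, 5.58, 6.10 and 5.76. In DD 1 to 4 it was 5.02, 5.08, 4.18 and 4.88. NN 2 alone among the unchanged-diet livers reached into the changed-diet range, above ND 2 and DN 1; without it, all 9 changed-diet livers were above the other 7. The order of group means was DD (4.79 ± 0.41, SD, n = 4), NN (5.03 ± 0.37, n = 4), DN (5.68 ± 0.31, n = 5) and ND (5.73 ± 0.29, n = 4), with neighbours overlapping. The changed-diet mean was higher by 0.79 ± 0.156 (SE), or 1.73-fold, and by 0.88 without NN 2.

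Phaf1 log2 signal was 4.48, 4.83, 4.05 and 4.30 in NN 1 to 4. In ND 1 to 4 it was 4.99, 4.75, 4.76 and 5.10, and in DN 1 to 5 it was 5.03, 5.35, 5.39, 5.51 and 4.92. In DD 1 to 4 it was 4.39, 4.73, 4.23 and 4.59. Every DN liver was above every liver of NN and DD, while ND 2 and ND 3 lay below NN 2. The means ran from NN (4.42 ± 0.33, SD, n = 4) and DD (4.48 ± 0.22, n = 4), which overlapped, to ND (4.90 ± 0.17, n = 4) and DN (5.24 ± 0.25, n = 5), which overlapped too; DD and ND did not. The changed-diet mean was higher by 0.62 ± 0.120 (SE), or 1.54-fold, and by 0.69 without NN 2.

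Cpq log2 signal was 5.94, 5.92, 5.87 and 6.14 in NN 1 to 4. In ND 1 to 4 it was 6.31, 6.14, 6.46 and 6.72, and in DN 1 to 5 it was 6.53, 6.40, 6.41, 6.73 and 6.22. In DD 1 to 4 it was 5.51, 6.17, 5.56 and 5.87. Here NN 2 was an ordinary NN liver, and DD 2 was the unchanged-diet liver that passed the lowest changed-diet liver, ND 2. The order of means was DD (5.78 ± 0.31, SD, n = 4), NN (5.97 ± 0.12, n = 4), ND (6.41 ± 0.25, n = 4) and DN (6.46 ± 0.19, n = 5); NN and ND did not overlap, although NN 4 and ND 2 came close, and the other neighbours overlapped. The changed-diet mean was higher by 0.56 ± 0.110 (SE), or 1.48-fold, and by 0.55 without NN 2.

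Plgrkt log2 signal was 2.96, 2.94, 2.96 and 2.85 in NN 1 to 4. In ND 1 to 4 it was 3.13, 3.22, 3.38 and 3.19, and in DN 1 to 5 it was 2.98, 3.18, 3.09, 3.05 and 3.13. In DD 1 to 4 it was 2.40, 2.73, 2.44 and 2.72. This was the dimmest of the 6 probe sets, above the 50th percentile of all array values (2.58) in 15 of 17 livers, and only DD 1 and DD 3 were under it. It was also the only one of the 6 in which every changed-diet liver was above every unchanged-diet liver. The closest pair were NN 1 at 2.963 and DN 1 at 2.977. The order of means was DD (2.57 ± 0.18, SD, n = 4), NN (2.93 ± 0.05, n = 4), DN (3.08 ± 0.08, n = 5) and ND (3.23 ± 0.11, n = 4), and only DN and ND overlapped among neighbours. The changed-diet mean was higher by 0.405 ± 0.0744 (SE), or 1.32-fold, and by 0.407 without NN 2.

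Zmpste24 log2 signal was 4.83, 5.04, 4.39 and 4.46 in NN 1 to 4. In ND 1 to 4 it was 5.26, 5.00, 5.57 and 5.76, and in DN 1 to 5 it was 5.54, 5.32, 5.43, 5.79 and 5.35. In DD 1 to 4 it was 5.05, 5.23, 4.90 and 5.17. All DN livers were above all unchanged-diet livers, and ND 2 fell inside the range of DD and just below NN 2. The order of means was NN (4.68 ± 0.31, SD, n = 4), DD (5.09 ± 0.15, n = 4), ND (5.40 ± 0.34, n = 4) and DN (5.49 ± 0.19, n = 5), with each neighbouring pair overlapping. The changed-diet mean was higher by 0.56 ± 0.121 (SE), or 1.47-fold, and by 0.62 without NN 2.

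**Figure D1:**
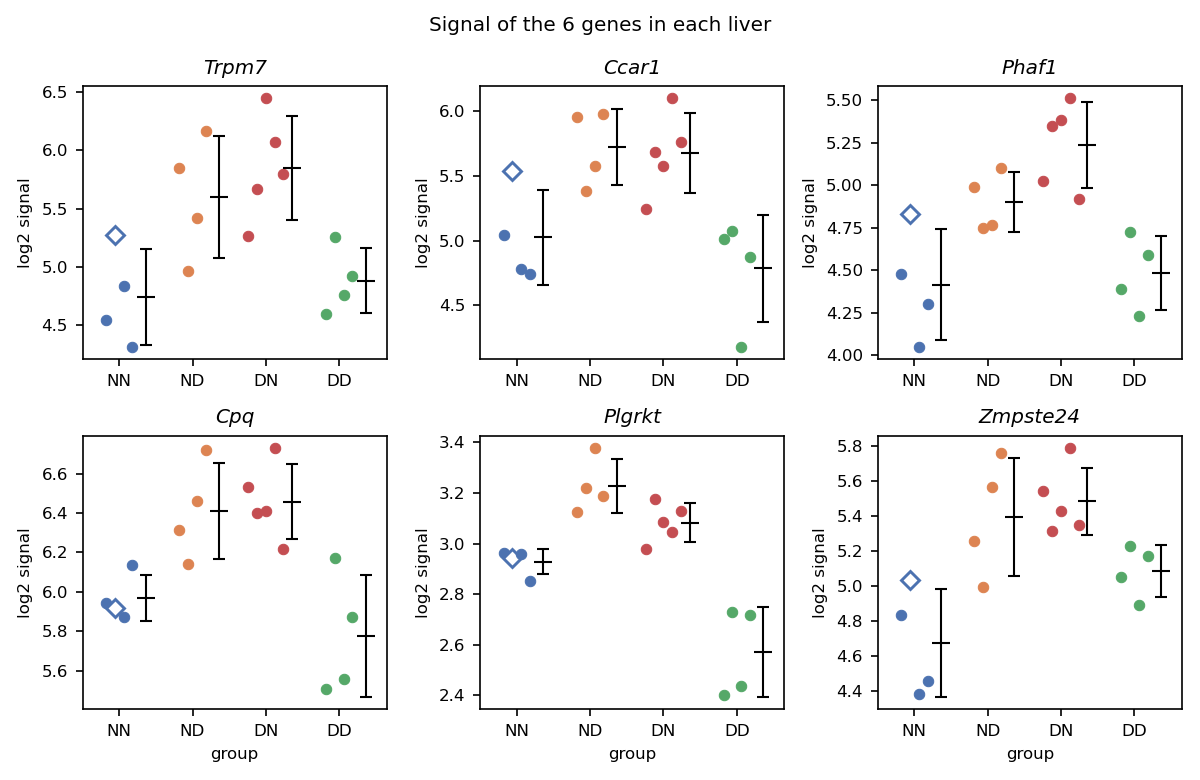
Log2 signal of each gene (vertical axis, own scale per panel) in each liver, by group (horizontal axis; N adequate and D deficient choline, pregnancy first, lactation second); points are livers, the open diamond is NN 2, and bars show the group mean with SD. The means of ND and DN sit above those of NN and DD in every panel. NN 2 reaches into the changed-diet range for Trpm7, Ccar1, Phaf1 and Zmpste24, and DD 2 for Trpm7, Cpq and Zmpste24. For Zmpste24, DD 1 and DD 4 reach into it too, and Plgrkt has no overlap.

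Sorted by liver, the same livers were high or low for several genes. The mark set for each gene was the midpoint between the median of the changed-diet livers and the median of the unchanged-diet livers. Of the 9 changed-diet livers, 7 exceeded it for all 6 genes, DN 1 for 4 and ND 2 for 3. Among the unchanged-diet livers, NN 3, NN 4, DD 1, DD 3 and DD 4 exceeded it for 0 genes, NN 1 for 1, and NN 2 and DD 2 for 2 each. NN 2 and DD 2 had the 15th and 12th narrowest array SD of the 17 arrays, and ND 2 the 7th narrowest. In whole liver, fewer cells of a type and less RNA per cell cannot be told apart.

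Ranked over the 12912 genes by their moderated statistic for changed against unchanged diet, Plgrkt, Phaf1, Cpq, Ccar1 and Trpm7 held places 1 to 5 among the higher genes and Zmpste24 place 12. By size of the difference they held places 979, 255, 371, 71 and 26, and Zmpste24 place 385. The residual SD of Plgrkt was at the 1.91 percentile of all genes, a small spread, and that of Trpm7 at the 89.1 percentile. In limma, 0% of all genes passed an adjusted p of 0.05 for this comparison, and 20% had an unadjusted p under 0.05. Without NN 2, itself the unchanged-diet array of widest spread, 4.95% of genes (639) passed, 483 of them higher under changed diet, which is 3.74%. With array SD as a covariate in limma, 580 of the 12912 genes had an unadjusted p under 0.05, and 0 passed adjustment. With NN 2 left out as well, a setting added after the data were seen, 688 genes did and 0 passed. With no overlap between the 9 and 8 livers, higher under changed diet, there were 2 genes in all (0.0155%), Plgrkt and the chromatin remodeller Ino80. Without NN 2 there were 30 (0.232%), with Ccar1, Phaf1 and Plgrkt among them. Since the 6 genes were chosen on this comparison, these shares describe the background and nothing is read from the place of the 6 in it.

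The excess over each unchanged group is given next; these differences share groups and are not independent. Trpm7 was higher in ND than in NN by 0.85 and in DN than in NN by 1.11, and higher than in DD by 0.72 and 0.97. Ccar1 exceeded NN by 0.70 in ND and 0.65 in DN, and DD by 0.94 and 0.89. Phaf1 exceeded NN by 0.49 and 0.82, and DD by 0.42 and 0.75, in the same order. Cpq exceeded NN by 0.44 in ND and 0.49 in DN, and DD by 0.63 and 0.68. Plgrkt exceeded NN by 0.30 and 0.15 but DD by 0.66 and 0.51. Zmpste24 exceeded NN by 0.72 and 0.81 but DD by 0.31 and 0.40. For Plgrkt the larger excess was over DD, and for Zmpste24 it was over NN.

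Since array SD was higher under changed diet, each difference was estimated again with array SD as a covariate. Trpm7 was then higher under changed diet by 0.60 ± 0.196 (SE), which is 65.4% of the difference without the covariate. Ccar1 kept 0.43 ± 0.124 (53.7%), Phaf1 0.36 ± 0.103 (57.8%) and Zmpste24 0.31 ± 0.113 (56.3%). Cpq kept 0.39 ± 0.117 (68.7%) and Plgrkt 0.37 ± 0.0897 (92.3%). All 6 differences stayed positive, which the choice of the genes on this difference favours, so nothing is read from their sign. With array SD fitted and NN 2 left out as well, a setting chosen after the data were seen, Trpm7 had 0.64 ± 0.251, Ccar1 0.41 ± 0.159, Phaf1 0.38 ± 0.132, Plgrkt 0.35 ± 0.115 and Zmpste24 0.32 ± 0.145. Cpq fell to 0.19 ± 0.125. Quantile normalising the arrays again, which gives every array the same spread, left 0.74 for Trpm7, 0.64 for Ccar1, 0.48 for Phaf1, 0.37 for Cpq, 0.39 for Zmpste24 and 0.45 for Plgrkt.

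**Figure D2:**
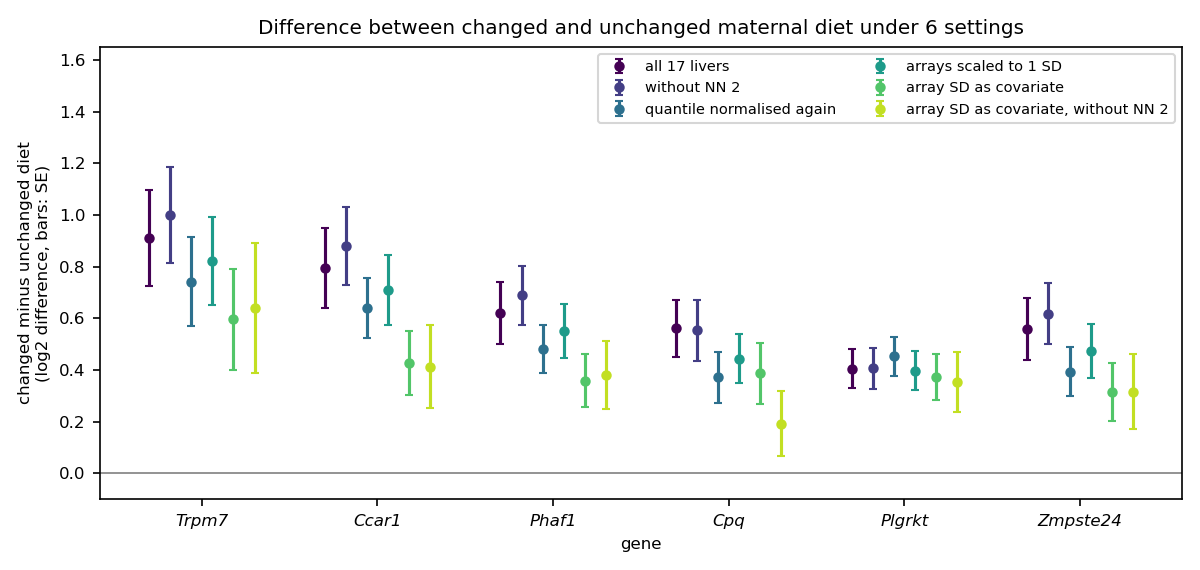
Log2 difference between changed and unchanged diet (vertical axis; bars are SE) for each gene (horizontal axis) under 6 settings, from all 17 livers to array SD as a covariate with NN 2 left out. All differences are above 0; those of Ccar1 run from 0.88 to 0.41, those of Plgrkt from 0.45 to 0.35, and that of Cpq is lowest at 0.19 in the last setting.

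Within groups, where diet is constant, the signal of a gene can be set against array SD, which the choice of the genes did not use. Ccar1 rose by 0.64 ± 0.126 (SE) per 0.1 of array SD (limma adjusted p = 0.00923), Phaf1 by 0.45 ± 0.105 (limma adjusted p = 0.0164) and Zmpste24 by 0.42 ± 0.115 (limma adjusted p = 0.0286). Trpm7 had a slope of 0.55 ± 0.200 (limma adjusted p = 0.0782) and Cpq of 0.30 ± 0.119 (limma adjusted p = 0.0946), neither past the threshold. The slope of Plgrkt was 0.05 ± 0.0914 (limma adjusted p = 0.703), with a 95% interval from -0.14 to 0.25. So 3 of 6 were called, all upward, where 12.7% of all genes were called and 8.98% upward. Among the 9521 genes passing a stricter filter at the 50th percentile, 1523 were called, 1194 of them upward. The 6 genes were not matched to other genes of the same brightness. The calls depended on NN 2. Without it, 1.84% of genes (1.43% upward) and none of the 6 passed, although the slopes of Ccar1 (0.65 ± 0.162, limma adjusted p = 0.0513), Phaf1 (0.43 ± 0.135, limma adjusted p = 0.0843) and Zmpste24 (0.42 ± 0.148, limma adjusted p = 0.110) hardly moved in size. That of Cpq rose to 0.50 ± 0.128 (limma adjusted p = 0.0519). Trpm7 then had 0.50 ± 0.257 (limma adjusted p = 0.244) and Plgrkt 0.08 ± 0.118 (limma adjusted p = 0.716). After repeated quantile normalisation none of the 6 passed either. Zmpste24 also lost its call with the trended robust variance (limma adjusted p = 0.0534) and when NN 3, ND 2, ND 4 or DN 4 was left out (limma adjusted p between 0.0516 and 0.0705). What sets array SD was not tested.

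**Figure D3:**
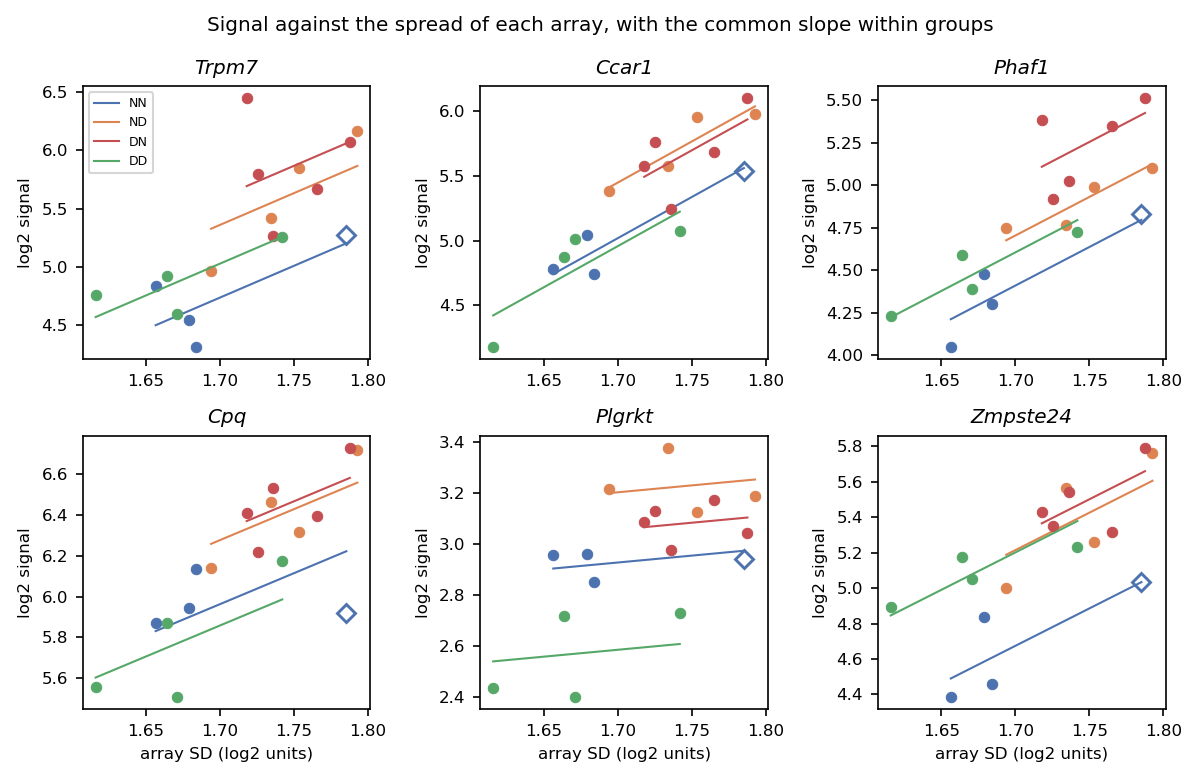
Log2 signal of each gene (vertical axis, own scale per panel) against array SD in log2 units (horizontal axis); points are livers coloured by group, the open diamond is NN 2, and lines give the slope common to the 4 groups. Slopes run from 0.64 per 0.1 of array SD for Ccar1 to 0.05 for Plgrkt, whose ND and DN livers overlap each other and all lie above its NN and DD livers.

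The residuals of the genes within groups were then compared in pairs, with no other gene pairs computed beside them. On residuals from the group means, all 15 pairs of the 6 genes had a positive Pearson r, from 0.20 to 0.76 with a median of 0.54 (17 livers; permutation within groups, 100000 resamples, 2-sided). After adjustment over the 15 pairs, 6 pairs passed 0.05 by Pearson's r and 5 by Spearman's rho. Ccar1 and Phaf1 had r = 0.76 and rho = 0.78 (permutation p = 0.00184, adjusted 0.0276; rho permutation p = 0.00118, adjusted 0.0177), and r = 0.67 without the 2 livers farthest from the median of Ccar1. Phaf1 and Zmpste24 had r = 0.69 and rho = 0.67 (permutation p = 0.00544 and 0.00634, adjusted 0.0300 and 0.0360), and r = 0.64 without the 2 farthest. The others past the threshold by r were Ccar1 with Zmpste24 (0.65), Trpm7 with Phaf1 (0.65), Trpm7 with Ccar1 (0.64) and Cpq with Zmpste24 (0.62), each at an adjusted permutation p of 0.0300. Of these, Trpm7 with Phaf1 missed it by rho (0.60, permutation p = 0.0248, adjusted 0.0533). The 5 pairs with Plgrkt had r between 0.20 and 0.33, none past the threshold.

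These pairs share the array they were measured on, and 31.7% of all genes had a slope on array SD at an unadjusted p under 0.05 in limma. With array SD fitted as well, the median r was 0.11, the range -0.36 to 0.38, and 0 of 15 pairs had a permutation p under 0.05 before adjustment. Without NN 2, 3 pairs passed by r, namely Cpq with Zmpste24 (0.74), Ccar1 with Phaf1 (0.68) and Phaf1 with Cpq (0.68).

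**Figure D4:**
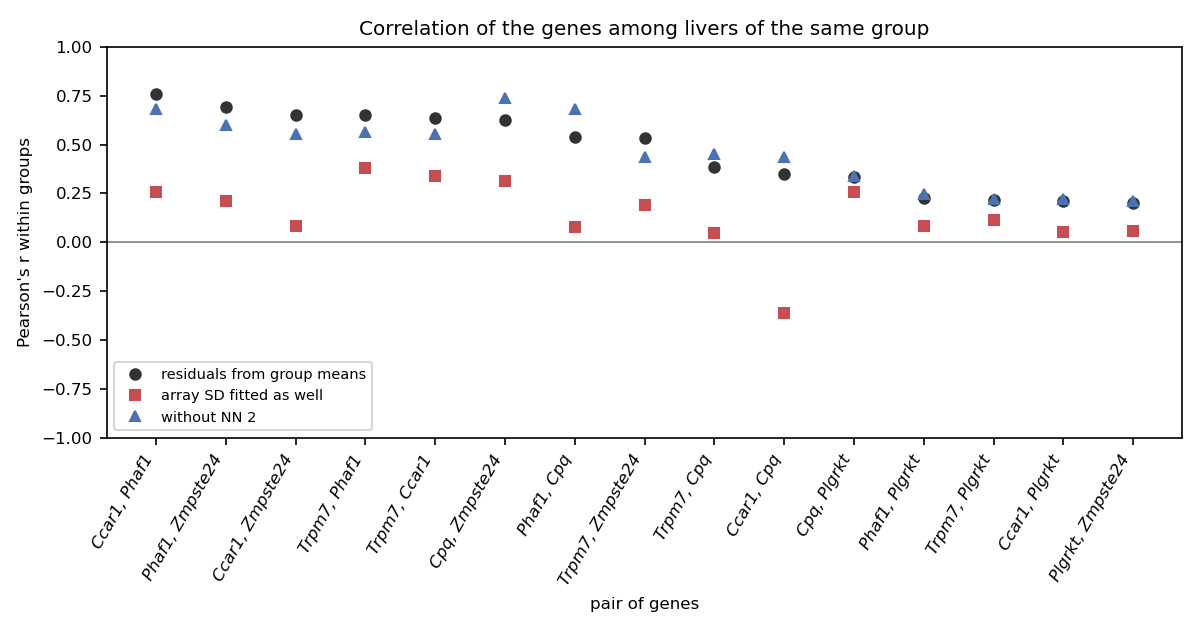
Pearson's r of residuals from the group means (vertical axis) for each of the 15 pairs of genes (horizontal axis), for all 17 livers (circles), with array SD fitted as well (squares) and without NN 2 (triangles). The circles lie between 0.20 and 0.76, and the squares between -0.36 and 0.38.

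The difference between ND and DN was not used to choose the genes, nor was that between DD and NN, and both were tested in limma over all 12912 genes. No gene passed an adjusted p of 0.05 in either (0% called); 365 genes (2.83%) had an unadjusted p under 0.05 for ND against DN, and 462 (3.58%) for DD against NN. Phaf1 had an ND minus DN difference of -0.34 ± 0.165 (SE; 95% interval -0.68 to 0.01, limma adjusted p = 0.999). Trpm7 differed by -0.25 ± 0.257 (interval -0.79 to 0.29), Zmpste24 by -0.09 ± 0.167 (-0.44 to 0.26) and Cpq by -0.05 ± 0.152 (-0.37 to 0.27), each ND minus DN with a limma adjusted p of 0.999. Ccar1 at 0.05 ± 0.215 (-0.40 to 0.50) and Plgrkt at 0.14 ± 0.102 (-0.07 to 0.36) had the same adjusted p. The intervals leave room for differences of 0.5 and more in Trpm7, Ccar1 and Phaf1, so the groups are not shown to be alike.

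Between the unchanged diets, Plgrkt had a DD minus NN difference of -0.36 ± 0.108 (SE; 95% interval -0.59 to -0.13), with all 4 DD livers below all 4 NN livers. Its limma p was 0.00396 before and 0.999 after adjustment over all genes, so it did not pass. The share of all genes with every DD liver below every NN liver was not counted. Zmpste24 had a difference of the other sign, 0.41 ± 0.176 (interval 0.04 to 0.78). Its limma p was 0.0323 before and 0.999 after adjustment. The other 4 genes had intervals that held 0. Trpm7 differed by 0.14 ± 0.271 (-0.43 to 0.71) and Phaf1 by 0.07 ± 0.174 (-0.30 to 0.43). Ccar1 differed by -0.24 ± 0.226 (-0.72 to 0.24) and Cpq by -0.19 ± 0.160 (-0.53 to 0.15), all with a limma adjusted p of 0.999.

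**Figure D5:**
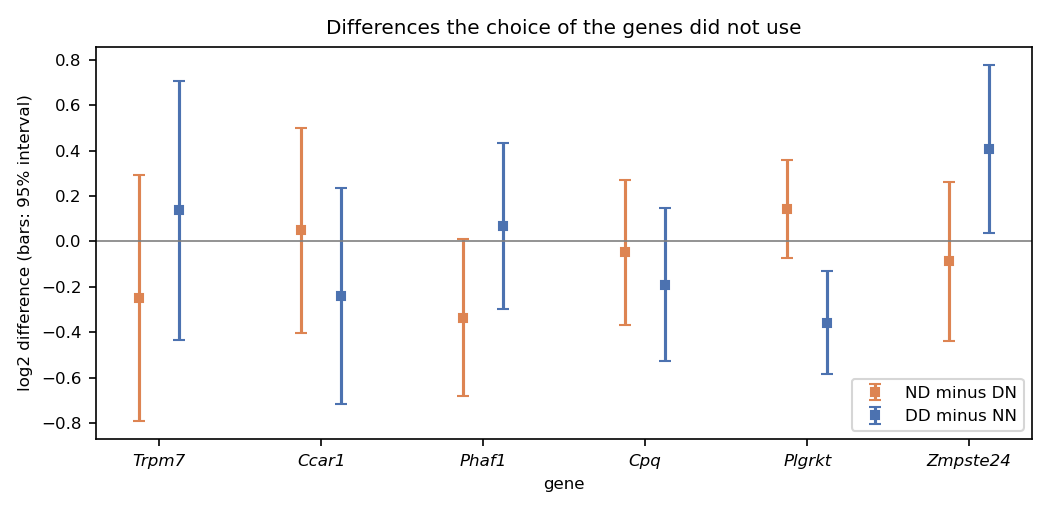
Log2 differences with 95% intervals (vertical axis) for each gene (horizontal axis), ND minus DN and DD minus NN, which the choice of the genes did not use. Only the DD minus NN intervals of Plgrkt (-0.59 to -0.13) and Zmpste24 (0.04 to 0.78) leave out 0, and neither passed the adjusted test.

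The genes whose signal followed each of the 6 most closely over the 17 livers are named by Pearson's r, as a description: livers share diet group and array SD, and the likeness was not tested. Of the 3 closest to Trpm7, those named here are Fundc1 (r = 0.95), a mitophagy receptor, and Csnk2a1 (0.94), a catalytic subunit of casein kinase 2. Ccar1 was followed by Zdhhc6 (0.93), a protein palmitoyltransferase, Ndel1 (0.92), a dynein regulator, and U2surp (0.92), a splicing factor. Phaf1 was followed by Lats1 (0.93), a Hippo pathway kinase, Cxadr (0.91), a junction protein, and Ift46 (0.91), a ciliary transport subunit. Cpq was followed by Atxn3 (0.86), a deubiquitinase, Cryz (0.86), a quinone reductase, and Blzf1 (0.85), a Golgi protein. Plgrkt was followed by Rcor1 (0.84), a corepressor, Or4c120 (0.83), an olfactory receptor, and Cnot10 (0.80), a subunit of the deadenylase complex. Zmpste24 was followed by Sypl1 (0.91), a vesicle membrane protein, Serinc1 (0.89), linked to serine incorporation into lipids, and Rasa1 (0.87), a Ras GTPase activator. Around the group means, r was 0.88 for Trpm7 with Fundc1, 0.94 for Ccar1 with Zdhhc6 and 0.50 for Plgrkt with Cnot10.

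The nearest relatives or partners of the members are reported with their differences between changed and unchanged diet. Trpm6, the paralogue of Trpm7, was dim (mean log2 signal 1.80) and differed by 0.04 ± 0.0765 (SE; limma adjusted p = 0.772). Ccar2, the paralogue of Ccar1, differed by 0.04 ± 0.155 (limma adjusted p = 0.912). Bcas3, the partner of Phaf1, differed by 0.20 ± 0.123 (limma adjusted p = 0.357). Plg, which encodes the ligand of Plgrkt, and Lmna, which encodes the substrate of Zmpste24, are not analysed here.

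Wider lists around each gene were then counted; they hold no member. For changed against unchanged diet 0 genes of any list passed in either direction in limma. Among all genes, 6052 of 12912 (46.9%) had a positive difference, and the median difference was -0.02. Among the 9521 genes passing a stricter filter at the 50th percentile, the median difference was 0.03. The lists were not matched to other genes of the same brightness. Of the 27 transcription coactivators around Ccar1, 22 were positive with a median of 0.21, among them the Mediator subunits Med14 at 0.89 ± 0.203 (SE; limma adjusted p = 0.114) and Med13 at 0.74 ± 0.199 (limma adjusted p = 0.114). The median was 0.02 with array SD fitted. Of 29 autophagosome genes 25 were positive, with a median of 0.14, or 0.03 with array SD fitted. Rb1cc1, a scaffold of the kinase complex that starts autophagy, stood at 0.92 ± 0.239 (limma adjusted p = 0.114), and Atg13 of the same complex at 0.51 ± 0.140 (limma adjusted p = 0.117).

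Of 16 lysosomal peptidases 13 were positive (median 0.14, or 0.00472 with array SD fitted), with the cysteine protease Lgmn at 0.49 ± 0.155 (SE; limma adjusted p = 0.130) and the carboxypeptidase Scpep1 at 0.23 ± 0.122 (limma adjusted p = 0.30). Of 16 genes of the plasminogen system 14 were positive (median 0.14, or -0.05 with array SD fitted). Cpb2, which slows fibrin breakdown, was at 0.50 ± 0.154 (limma adjusted p = 0.125), and the plasminogen-binding S100a10 at 0.68 ± 0.216 (limma adjusted p = 0.133). Of 18 genes on a list around magnesium and TRPM channels 12 were positive (median 0.05, or 0.02). The energy-sensing kinase Prkaa1, not itself a channel, was at 0.42 ± 0.139 (limma adjusted p = 0.138) and the channel Trpm8 at -0.19 ± 0.0719 (limma adjusted p = 0.165). The 14 genes of prelamin processing and the nuclear lamina split into 7 positive and 7 negative (median 0.03, or -0.17), with Lmnb2 at -0.52 ± 0.150 (limma adjusted p = 0.118) and the nuclear pore gene Nup153 at 0.58 ± 0.168 (limma adjusted p = 0.118). Of 10 prenylation genes 6 were positive (median 0.07, or 0.14), with the farnesyltransferase subunit Fnta at 0.41 ± 0.136 (limma adjusted p = 0.139) and the Rab escort protein Chm at 0.43 ± 0.150 (limma adjusted p = 0.152).

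Markers of the cell types a liver sample can hold were counted in the same way, and again 0 passed for changed against unchanged diet. Their part in the values of the 6 genes was not tested. Of 7 sinusoidal endothelial markers 6 were positive, with a median of 0.19 that was -0.08 with array SD fitted; Dnase1l3, a secreted nuclease, was at 0.61 ± 0.141 (SE; limma adjusted p = 0.114). Their mean log2 signal per liver ran from 5.37 to 5.89 in NN, 5.52 to 5.88 in ND, 5.61 to 5.91 in DN and 5.03 to 5.72 in DD. Of 11 Kupffer cell and macrophage markers 8 were positive (median 0.13, or -0.04 with array SD fitted), with Vsig4, a complement receptor, at 0.82 ± 0.253 (limma adjusted p = 0.126). Their mean signal ran from 4.85 to 5.43 in NN, 4.79 to 5.48 in ND, 4.62 to 5.37 in DN and 4.72 to 4.96 in DD. Of 7 hepatocyte markers 5 were positive with a median of 0.07, and their mean signal lay between 10.7 and 10.9 in all groups; Ttr was at -0.12 ± 0.0721 (limma adjusted p = 0.355).

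Of 8 stellate cell markers 5 were positive (median 0.02; Dcn, a matrix proteoglycan, 0.31 ± 0.132, SE, limma adjusted p = 0.213), and of 5 cholangiocyte markers 2 were (median -0.14; Epcam 0.25 ± 0.103, limma adjusted p = 0.197). Of 7 lymphocyte and neutrophil markers 2 were positive (median -0.13; the leukocyte phosphatase Ptprc 0.38 ± 0.109, limma adjusted p = 0.118), and of 5 erythroid markers 3 were (median 0.03; Ahsp 0.16 ± 0.181, limma adjusted p = 0.634). Markers of tissue from outside the liver were mostly negative, with 1 of 6 pancreas genes (median -0.17; Ins2 -0.62 ± 0.185, limma adjusted p = 0.118) and 1 of 5 kidney and gut genes positive (median -0.11; Nphs1 -0.18 ± 0.0929, limma adjusted p = 0.285).

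Several of these lists also held genes whose slope on array SD passed upward, against 8.98% of all genes. That share of all genes was 1.43% without NN 2, and the counts of the lists were not recomputed without it. Under the stricter filter at the 50th percentile, 1194 of 9521 genes passed upward. The counts were 10 of 27 coactivators (37.0%), 4 of 29 autophagosome genes (13.8%), 4 of 16 plasminogen genes (25%), 4 of 14 lamina genes (28.6%), 2 of 16 lysosomal peptidases (12.5%), 2 of 18 genes of the magnesium and TRPM list (11.1%) and 1 of 10 prenylation genes (10%). Among markers they were 5 of 7 sinusoidal endothelial genes (71.4%), 2 of 11 Kupffer cell and macrophage genes (18.2%), 2 of 8 stellate cell genes (25%) and 0 in the other 6 lists.

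At the other end of the same ranking stood Chpf, a chondroitin synthase subunit, which was lower under changed diet by -0.52 ± 0.0913 (SE), followed by Bicdl2 (-0.39 ± 0.0844), Kcns2 (-0.49 ± 0.108), Epdr1 (-0.50 ± 0.113) and the gap junction gene Gja5 (-0.45 ± 0.102). Each had a limma adjusted p of 0.114, the smallest of the comparison. All 5 were among the dimmer genes, with mean log2 signals between 2.10 and 2.85.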

How the data were processed

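The arrays are Affymetrix, hybridised with biotin-labelled total RNA of 17 livers. The authors deposited log2 probe set signals; the submitters' processing notes list RMA and affy, and their versions are not given in the sources used here. This method subtracts background, equalises arrays and summarises probes, so a value is relative. The logarithm's base is unstated and was taken as 2. Array medians ran from 2.50 to 2.71. No scan date, slide or batch is given, so none was tested.

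The platform annotation gave 1 symbol for 14824 of 36685 probe sets, several for 829 and none here for 21032. Each of the 6 genes has 1 such probe set. For the 234 genes with several sets the one of highest mean was used, leaving 14557 genes, of which 12912 passed a filter (4 or more arrays over 1.73, the 25th percentile of the value table) and were tested. No build is stated for the array annotation in those sources.

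Group means were fitted to all 17 arrays in limma 3.58.1 (R 4.3.3; lmFit, eBayes), with Benjamini-Hochberg adjustment over all genes and a threshold of 0.05. The contrast of changed and unchanged diet is the mean of ND and DN minus that of NN and DD. Slopes are per 0.1 of array SD, with the groups fitted. The 6 genes and all lists were chosen with earlier results of these data known. Besides the 6, the text names the 3 genes of highest r with each (the closest to Trpm7 is not reported here), close partners, the 5 genes of largest moderated statistic in each direction, 2 genes per pathway list and 1 per marker list. Values after ± are SEs for differences and slopes and SDs for means. The number of arrays limits the precision, and 1 male per litter makes the litter the unit. Alternatives were the filter, the variance model, the normalisation, array SD as a covariate or scaling, a replicate block, only the groups compared, and each array left out. The replicate numbers were taken from the sample titles and were not used to pair livers in the main fits.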

Additional observations from a re-analysis of the deposited data

Results flagged for a closer look

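Cpq and Plgrkt were singled out because values were higher with deficient lactation after adequate pregnancy and lower after deficient pregnancy, without overlap. The share of all genes with this pattern was not counted. For Cpq, each ND liver was above each NN liver (ND minus NN 0.44 on the log2 scale) and each DD liver was below each DN liver (DN minus DD 0.68). The closest ND and NN livers for Cpq were ND 2 at 6.140 and NN 4 at 6.137. For Plgrkt, ND minus NN was 0.30 and DN minus DD 0.51, again without overlap. The difference between these effects was not tested, because both genes were chosen for higher values in ND and DN. Dixon's criterion flagged no liver in the 28 groups of values examined. With 4 or 5 livers per group it can hardly flag any, so nothing is read from this about NN 2 or any other liver.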

How the results depend on the processing

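No gene passed the adjusted limma test for ND minus DN or DD minus NN under any of 28 alternatives each (0 called), with 238 to 755 and 279 to 808 genes at an unadjusted p under 0.05. For changed minus unchanged diet the count was 0 except without NN 2, so leaving out 1 array gave 0 to 639 genes. The 6 differences of changed minus unchanged diet stayed positive under every alternative run. The genes were chosen for this difference, so nothing is read from its sign. The number of genes with a slope on array SD was 1645; it was 327 after repeated quantile normalisation and 389 with the replicate block, and 238 to 1685 with 1 array left out (238 without NN 2, 645 without DD 2, 858 without ND 4, 910 without ND 2, 1062 without NN 3). With the replicate block the counts of the 3 diet contrasts were still 0; same-numbered livers had deviations correlated at r = -0.45 to 0.53 over 24 pairs, 11 of them over 0.1, and 8 of 17 arrays correlated best with their own number. The replicate block took the slope call from Phaf1 (limma adjusted p = 0.125) and Zmpste24 (0.0565) and gave one to Trpm7 (0.0496). Centring arrays on their median gave Trpm7 (0.0320) and Cpq (0.0221) a slope call in limma. That of Zmpste24 was also lost with the trended robust variance (limma adjusted p = 0.0534) and in 5 of the 17 fits with 1 array left out (highest adjusted p 0.110). The difference in array SD was 0.0720 without NN 2, itself the widest unchanged-diet array, and 0.0835 over probe sets with 1 symbol (exact permutation, adjusted p = 0.170). The 6 correlated pairs became 0 with array SD fitted and 3 without NN 2. Signs turned in some results that did not pass a test with all livers and the main settings. ND minus DN ran from -0.058 (without DN 1) to 0.16 for Ccar1 when 1 array was left out, turning also without ND 1 (-0.028) and ND 4 (-0.035). It ran from -0.15 to 0.042 for Cpq, turning without ND 2 (0.042) and DN 4 (0.020), and from -0.21 to 0.045 for Zmpste24, turning without ND 2. DD minus NN ran from -0.00478 (without NN 4) to 0.31 for Trpm7, and from -0.054 (without NN 3) to 0.21 for Phaf1, turning also without DD 2 (-0.013). The slope of Plgrkt ran from -0.000830 (without DD 2) to 0.076, and that of Cpq turned to -0.057 after quantile normalisation. The cause was not tested. Array SD as a covariate together with NN 2 left out was added after seeing the data. Plgrkt had the lowest mean signal of the 6 (2.96), and no background measure was used.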
